A study of Mus musculus with 36 samples.

Results

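CpG methylation was examined at 9 genes of pre-B cell receptor and PI3K-Foxo signalling: Cd79a, Cd79b, Blnk, Syk, Plcg2, Inpp5d, Pik3cd, Foxo1 and Foxo3. A CpG cluster here is a stretch of listed positions in which neighbours are no more than 100 bp apart. The members were all such clusters that overlapped one of these genes or 2 kb on either side (GENCODE M21 gene models on GRCm38). Of 18009 clusters in the tables, 14 met this rule, and they lay at 6 of the 9 genes. Cd79b, Blnk and Inpp5d had no cluster, and Cd79a had one only beyond its end. A cluster was called a promoter cluster where it came within 1 kb of any annotated start of the gene, otherwise a gene-body or flanking cluster. By this definition 7 of the 14 were promoter clusters, 5 gene-body clusters and 2 flanking clusters.

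The samples were 36 harvests of B3, a mouse pre-B cell line, profiled by reduced representation bisulfite sequencing (RRBS), in which DNA is cut with MspI at CCGG before bisulfite conversion. The 18 samples of the Ikaros series carried an MSCV retroviral vector encoding HA-Ikaros-ERt2-IRES-GFP, whose Ikaros fusion protein moves into the nucleus when 4-hydroxytamoxifen (4-OHT) is present. The 18 samples of the Control series carried the vector with ERt2 but without Ikaros. Each series had 3 replicates at 0, 2, 6, 12, 18 and 24 h. The labels give 0.5 µM 4-OHT for every sample, the 0 h samples included, whereas the study's methods describe 0 h as untreated, so what was added at 0 h is uncertain. The labels of all 36 samples also put the addition of 4-OHT at 2 h before collection, whatever the time point, so the exposure behind each time point is not settled by the labels. Time points are used here as labelled. Each series is a transduced population of 1 line, so a difference between the series cannot be told apart from a difference between the 2 transduced populations. By the study's methods the replicates are repeats of the whole time course in separate batches, so p-values measure the spread between such repeats. The same methods say that the 0 h cells were collected apart from the induced ones, so a difference between 0 h and later times cannot be told apart from that separate collection.

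The pre-B cell receptor signals through Cd79a and Cd79b, whose cytoplasmic tails recruit the kinase Syk. Syk acts with the adaptor Blnk on phospholipase Plcg2, while the PI3K catalytic subunit Pik3cd produces a membrane lipid that the phosphatase Inpp5d breaks down. PI3K signalling keeps the transcription factors Foxo1 and Foxo3 out of the nucleus, and in pre-B cells these factors act on genes of recombination, survival and cell cycle exit. Methylation of CpGs near a start site is usually low at active promoters rich in CpG, whereas gene bodies are usually methylated.

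The following stretches carry the levels described here and are shown so that methylated and unmethylated CpG-rich sequence of these genes can be compared. All are from the GRCm38.p6 assembly of RefSeq, written 5′ to 3′ on the strand of the gene, with capitals marking the CpGs that have at least 1 cytosine in the tables. The Syk stretch (chr13:52582782-52583081, plus strand) lies upstream of the first start and was partly methylated. The Foxo3 intron stretch (chr10:42275608-42275766, minus strand) was mostly methylated, and the Foxo3 stretch just before the start (chr10:42276756-42277055, minus strand) was not. The Foxo1 stretch (chr3:52267793-52268092, plus strand) is an unmethylated upstream region, and the Pik3cd stretch (chr4:149676094-149676276, minus strand) is a methylated region at an internal start.
Syk upstream: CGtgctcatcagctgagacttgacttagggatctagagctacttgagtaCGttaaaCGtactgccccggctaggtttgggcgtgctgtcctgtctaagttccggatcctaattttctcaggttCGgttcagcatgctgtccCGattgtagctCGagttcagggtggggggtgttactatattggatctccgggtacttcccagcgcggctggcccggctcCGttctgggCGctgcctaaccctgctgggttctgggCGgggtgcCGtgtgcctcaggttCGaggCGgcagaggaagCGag
Foxo3 first intron: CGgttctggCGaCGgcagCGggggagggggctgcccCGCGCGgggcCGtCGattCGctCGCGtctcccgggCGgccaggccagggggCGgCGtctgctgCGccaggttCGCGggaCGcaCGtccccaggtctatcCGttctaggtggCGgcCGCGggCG
Foxo3 before the start: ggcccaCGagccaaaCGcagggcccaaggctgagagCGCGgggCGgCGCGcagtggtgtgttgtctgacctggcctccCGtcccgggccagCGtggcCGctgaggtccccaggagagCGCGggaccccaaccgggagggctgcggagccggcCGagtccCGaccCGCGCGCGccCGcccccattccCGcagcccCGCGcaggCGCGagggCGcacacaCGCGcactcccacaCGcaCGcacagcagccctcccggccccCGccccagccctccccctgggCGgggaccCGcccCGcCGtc
Foxo1 upstream: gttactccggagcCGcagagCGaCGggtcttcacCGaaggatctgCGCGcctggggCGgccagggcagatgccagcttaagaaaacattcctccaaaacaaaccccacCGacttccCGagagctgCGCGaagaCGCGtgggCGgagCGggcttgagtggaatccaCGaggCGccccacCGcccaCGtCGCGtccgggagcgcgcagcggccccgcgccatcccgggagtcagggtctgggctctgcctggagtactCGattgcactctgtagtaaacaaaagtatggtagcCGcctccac
Pik3cd internal promoter: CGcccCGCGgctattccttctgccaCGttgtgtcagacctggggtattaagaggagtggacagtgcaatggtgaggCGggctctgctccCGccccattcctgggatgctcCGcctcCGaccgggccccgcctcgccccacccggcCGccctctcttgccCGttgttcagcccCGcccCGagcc

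The Foxo3 intron stretch held 26 CpGs in 159 bases, 25 of them listed, while the 300 bases before the Foxo3 start held 39, 34 of them listed. Both are thus rich in CpG and differ in level, as described below with the values. Over whole clusters, the Foxo3 first intron had 16.4 CpGs per 100 bp, the densest of the 14, and the Pik3cd internal promoter 11.01. For comparison, the median density over all tested clusters was 10.2 CpGs per 100 bp where the mean level was under 10% and 8.90 where it was over 90%.

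The genes without a promoter cluster had few CpGs and few MspI sites around their start. Within 1000 bp on either side of the outermost start, Cd79b had 23 CpGs and 5 CCGG sites. Blnk had 33 CpGs and 1 CCGG site. Inpp5d had 36 CpGs and 3 CCGG sites, and Cd79a had 45 and 2. These values lie nearer to those of the 10281 protein-coding genes without a promoter cluster (medians 22 CpGs and 2 CCGG sites) than to those of the 11657 with one (medians 95 and 11). By contrast, Foxo1 had 215 CpGs and 16 CCGG sites, Foxo3 had 164 and 18, Syk 93 and 18, and Plcg2 85 and 14. Pik3cd had only 45 CpGs and 5 CCGG sites around its outermost start and no cluster there. Its promoter cluster lay at internal starts. The same gap recurred in the rest of the receptor, since of 10 further receptor and co-receptor genes only Vpreb1, part of the surrogate light chain, had a cluster.

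The letters TGGGAA, the core recognised by Ikaros proteins, were searched on both strands of the RefSeq promoter windows (GRCm38.p6, 250 bp before to 50 bp after a start). Of the 9 genes, 8 had a window in that table, with 11 windows in all, and Cd79b had none. The letters occurred in 4 of these 11 windows, 1 of Inpp5d, 1 of Plcg2 and 2 of Pik3cd, and in 25.6% of all 32851 windows. The RefSeq starts behind these windows are not always the GENCODE starts from which positions are counted here. In windows of the same length at the outermost GENCODE start, the letters occurred in 4 of the 9 genes, namely Cd79b, Inpp5d, Plcg2 and Syk, and in 25.3% of 21938 protein-coding genes. The Syk match is in the stretch printed above, where it reads ttccca, and lies outside both RefSeq windows of Syk. Neither set of windows held the letters for Cd79a, Blnk, Foxo1 and Foxo3.

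The tables gave a level for 1116417 positions, of which 895908 had one in all 36 samples and entered the tests. All 14 member clusters held such positions, between 18 and 156 each. Levels were smoothed by the authors along each cluster. They come without read numbers per position, so the depth behind a value is unknown. The study's methods give only an approximate number of reads per sample. Libraries had no value at 0.110% to 11.6% of the positions (median 0.326%), the highest share being in Control 0 h replicate 1. Levels of exactly 0 or 1 made up 21.0% to 36.2% of the values in Control libraries (median 26.7%) and 26.9% to 59.1% in Ikaros libraries (median 34.2%), the highest share being in Ikaros 24 h replicate 2. The B lineage could be checked only at Pax5, Ebf1 and Vpreb1, 3 of 9 markers with a promoter cluster, and all 3 were under 10% (means of 0.982%, 0.205% and 0.337%). Among markers of other lineages, the promoter clusters of Lck (T cells, 79.6%), Cebpa (myeloid, 97.8% to 98.2%), Cebpe (myeloid, 86.0%) and Epor (erythroid, 94.0%) were methylated, whereas that of Klf1 (erythroid) was at 1.47%.

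Most of the 14 clusters were either almost free of methylation or almost fully methylated. Averaged over the samples, the level was under 10% in 7 clusters, between 10% and 90% in 2 and over 90% in 5. Over all 16734 clusters tested these classes held 48.6%, 11.1% and 40.2%. The 7 clusters with low levels lay in or near Cd79a, Plcg2, Foxo1 and Foxo3. The 2 intermediate ones were the Syk promoter and the Foxo3 first intron. Of the 5 highly methylated ones, 3 were in Pik3cd and 2 in coding exons of Foxo3.

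**Figure D1:**
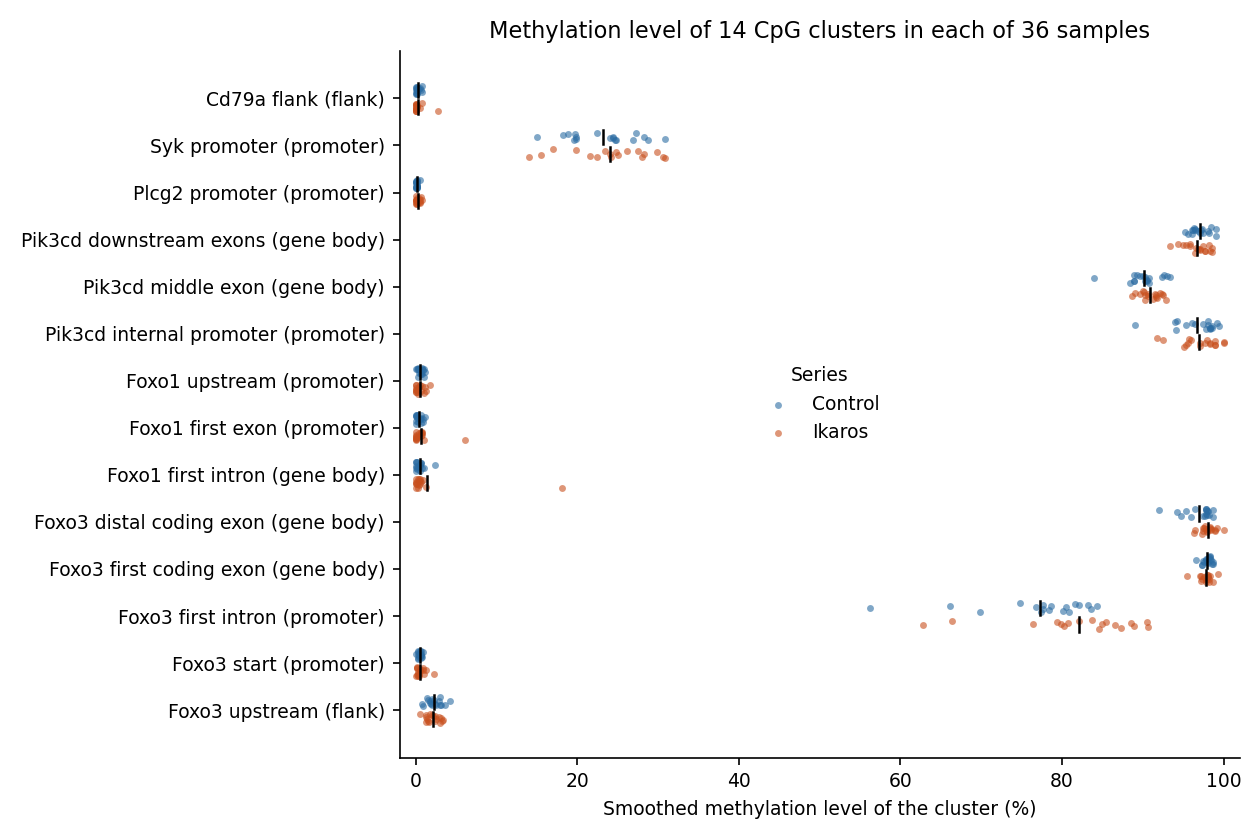
Smoothed methylation level (x axis, percent) of each of the 14 CpG clusters (rows) in the 18 Control and 18 Ikaros samples, each point 1 sample and each black tick a series mean. Only the Syk promoter and the Foxo3 first intron lie away from the ends of the scale, and in every row the points of the series overlap.

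No member cluster differed between the series at an adjusted p under 0.05 (limma on M-values with the time point as a factor, Benjamini-Hochberg over all 16734 clusters). Over all clusters 4.84% (810) passed this threshold and 3.71% did so with the higher level in Ikaros, so that 0 of 14 is close to the background. An M-value is log2 of the level over its complement. At an unadjusted p under 0.05, 3 of the 14 members were found against 14.8% of all clusters, namely the Foxo3 first intron, the Syk promoter and the Foxo3 distal coding exon. The smallest adjusted p among the members was 0.0898. The M-value was higher in the Ikaros series in 10 of 14 members and in 63.6% of all clusters. The median difference (Ikaros minus Control) was 0.07 M-value units over the members and 0.03 over all clusters.

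**Figure D2:**
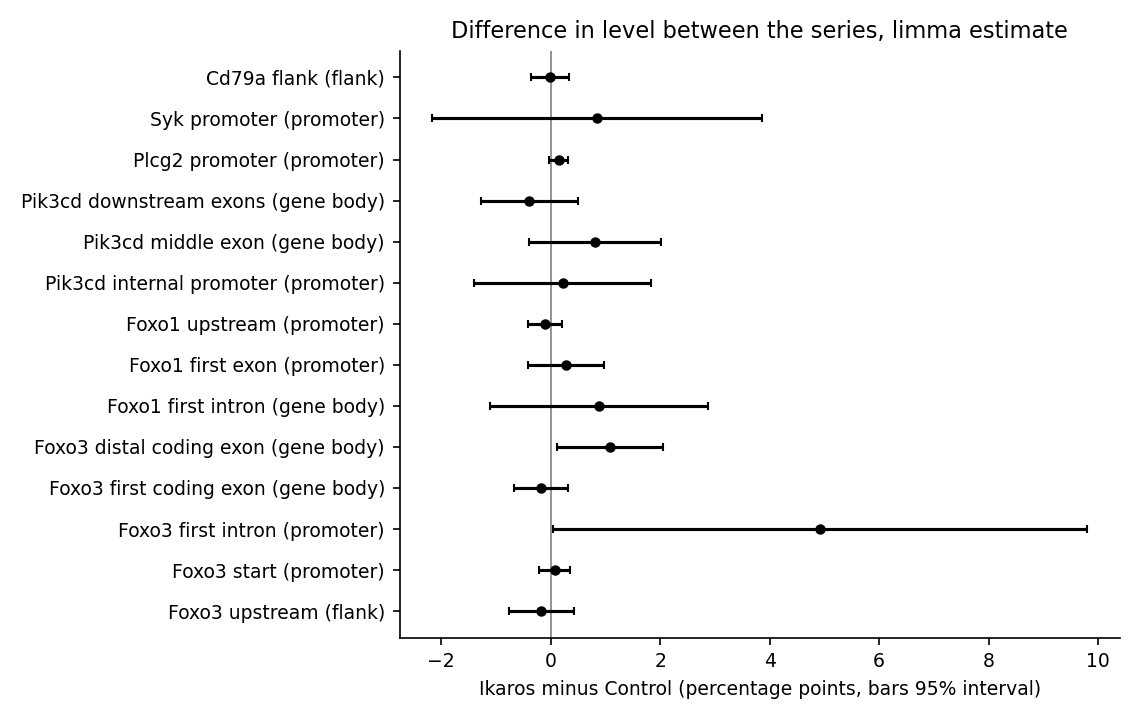
Ikaros minus Control difference in level (x axis, percentage points) for each member cluster with its 95% interval from the limma fit on levels. The interval lies above 0 only for the Foxo3 first intron and the Foxo3 distal coding exon, and neither passed adjustment over all clusters. With 1 sample left out, the interval stayed above 0 in 16 of 36 fits for the intron and in 33 of 36 for the exon.

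Cd79a encodes a signalling chain of the receptor. Its only cluster (chr7:24902893-24903293) began 5512 bp beyond the start site, outside the gene, and covers annotated starts of the next gene, Arhgef1, so its level describes the Arhgef1 promoter as much as Cd79a. The level was at most 0.805% in the Control series (median 0.208%) and at most 2.79% in the Ikaros series (median 0.0%). The highest value was in Ikaros 6 h replicate 1, and 12 of the 18 Ikaros samples and 4 of the 18 Control samples were at 0. The means were 0.272% ± 0.266 and 0.256% ± 0.666 (SD, n = 18 each), and without that highest sample the Ikaros mean was 0.107% ± 0.216 (n = 17). The difference of levels had a 95% interval from -0.365 to 0.334 percentage points.

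Syk, the kinase next to the receptor, had a promoter cluster (chr13:52582782-52583631) reaching from -391 to 458 bp relative to its first start, 46% of it before the gene and 50.9% in annotated UTR. In the Control series the level ran from 14.98% over a median of 24.2% to 30.8%, and in the Ikaros series from 14.1% over 24.5% to 30.9%. The means were 23.2% ± 4.30 and 24.1% ± 4.99 (SD, n = 18 each). The ranges of the series coincide almost entirely, and no sample was near 0 or near full methylation. The difference of levels was 0.846 percentage points with a 95% interval from -2.16 to 3.86. Leaving out 1 sample moved it between 0.325 (without Ikaros 12 h replicate 3) and 1.49 (without Control 12 h replicate 3), and each of these intervals contained 0. Within batches it was 4.08 points in batch 1 (n = 6 per series), -2.89 in batch 3 (n = 5), 2.26 in batch 4 (n = 6) and -8.34 in batch 2 (n = 1), so its sign did not hold across batches. On the M-value scale the difference was 0.38 ± 0.15 (SE), with an adjusted p of 0.170 from limma, and only the fit without Ikaros 12 h replicate 2, among the fits leaving out 1 sample, took it past the threshold (adjusted p = 0.0353).

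The intermediate level of the Syk promoter was an average over unlike stretches. At the 27 positions from -391 to -77 bp of the start, the mean was 44.0% ± 8.04 in Control and 44.0% ± 10.0 in Ikaros (SD, n = 18 each), with single samples from 26.8% to 59.4%. At the 25 positions from 305 to 458 bp downstream, it was 0.776% ± 0.639 in Control and 2.50% ± 2.30 in Ikaros, with no sample over 6.56%. The 22 positions between, from 11 to 290 bp downstream, were left out of the cluster value because 1 or 2 samples had no value at them. Their means were 14.1% ± 5.97 in 17 Control samples and 18.2% ± 9.01 in 18 Ikaros samples. The level thus stepped down across the start site, and position means within the cluster spanned 44.0 percentage points, a span reached by 3.43% of the 13134 protein-coding promoter clusters. The split into stretches was made after the profile was seen, and the differences between the series in each stretch were not tested.

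Plcg2, the phospholipase that Syk activates, had a promoter cluster (chr8:117498337-117498942) from 46 to 651 bp downstream of its start, 84.7% of it in the first intron. The level was 0% to 0.534% in Control (median 0.113%) and 0% to 0.819% in Ikaros (median 0.147%). No sample reached 1%, and the ranges overlapped from 0 upward. The difference was 0.143 percentage points, with a 95% interval from -0.0225 to 0.309 and an adjusted p of 0.472 on the M-value scale (limma).

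Pik3cd, the PI3K catalytic subunit, was methylated at all 3 of its clusters. The promoter cluster (chr4:149676050-149676276) spanned the internal start at 149676093, and was 19.4% exon and 80.6% intron. In Control its level ran from 89.0% over a median of 97.9% to 99.4%, and in Ikaros from 91.8% over 97.4% to 100%. No listed position lay at the outermost starts of the gene. Series means of the internal promoter were 96.7% ± 2.61 and 97.0% ± 2.33 (SD, n = 18 each), and the 95% interval of the difference was -1.39 to 1.83 percentage points around 0.216, which became -0.207 without Control 0 h replicate 2.

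The other Pik3cd clusters covered coding exons. The middle exon cluster (chr4:149659757-149659990) was at 90.1% ± 2.13 in Control and 90.9% ± 1.21 in Ikaros (SD, n = 18 each), and its position means ran from 69.0% to 96.9%. The downstream exon cluster (chr4:149655126-149655542), which also lies at Mir7023, was at 97.1% ± 1.13 and 96.7% ± 1.49. The 95% intervals of the differences were -0.401 to 2.01 and -1.28 to 0.491 percentage points. Both intervals contain 0. The differences were 0.803, or 0.417 without Control 0 h replicate 1, and -0.392, or -0.204 without Ikaros 0 h replicate 3. Inpp5d, the phosphatase that counteracts Pik3cd, had no listed position within the gene or 2 kb of it, so nothing can be said of its level.

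Foxo1 was unmethylated from its upstream region into its first intron. Its clusters lay at -725 to -244 bp of the start (chr3:52267611-52268092), in the first exon (chr3:52268563-52269163) and in the first intron (chr3:52269824-52270060). The upstream cluster was at 0% to 1.12% in Control (median 0.614%) and 0% to 1.82% in Ikaros (median 0.381%). The first exon was at 0% to 1.18% (median 0.310%) and 0% to 6.06% (median 0.381%). The first intron was at 0% to 2.42% (median 0.349%) and 0% to 18.1% (median 0.366%). The Ikaros maxima of the exon and intron each came from a single 24 h sample, replicate 3 and replicate 2, and no other Ikaros sample was over 1.07% and 1.26%.

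The high Foxo1 intron value came from Ikaros 24 h replicate 2, the library with the largest share of levels at exactly 0 or 1 (59.1%). Without it the Ikaros mean of the intron was 0.376% ± 0.347 (SD, n = 17) in place of 1.36% ± 4.19 (n = 18), beside 0.473% ± 0.573 in Control (n = 18). The part of library quality in that value was not tested. The 95% intervals of the differences were -0.413 to 0.201 percentage points upstream, -0.414 to 0.978 in the exon and -1.11 to 2.88 in the intron. The exon and intron differences each rested on 1 library. Without Ikaros 24 h replicate 3 the exon difference went from 0.282 to -0.0432 (-0.297 to 0.210), and the Ikaros mean from 0.682% to 0.366%, beside 0.400% in Control. Without Ikaros 24 h replicate 2 the intron difference went from 0.887 to -0.0966 (-0.430 to 0.237). The Foxo1 clusters also lie within 2 kb of Gm20402, an antisense gene model, and the intron cluster is within 1 kb of its start.

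Foxo3 had 5 clusters, and the level changed from near 0 to near full methylation between the start and the first coding exon. The upstream cluster (chr10:42278210-42278553) was at 2.30% ± 0.916 in Control and 2.12% ± 0.812 in Ikaros (SD, n = 18 each). The cluster at the start (chr10:42276328-42277781) was at 0.0635% to 0.882% in Control (median 0.493%) and 0% to 2.30% in Ikaros (median 0.400%). Neither cluster exceeded 4.31% in any sample. The first coding exon (chr10:42274926-42275503), 1193 to 1770 bp downstream of the start at 42276696, was at 98.0% ± 0.557 and 97.8% ± 0.809. The distal coding exon (chr10:42197192-42197374), 60992 bp downstream of the nearest annotated start, an internal one, was at 96.9% ± 1.81 and 98.0% ± 0.924.

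Between these zones lay the Foxo3 first intron cluster (chr10:42275608-42275766), 930 to 1088 bp downstream of the same start and wholly intronic, which the 1 kb window counts as promoter. In Control its level ran from 56.3% over a median of 78.5% to 84.3%, and in Ikaros from 62.8% over 84.1% to 90.6%. The means were 77.2% ± 6.99 and 82.2% ± 7.57 (SD, n = 18 each), and the ranges of the series overlapped over most of their extent. The lowest values were Control 12 h replicate 3 (56.3%) and Ikaros 12 h replicate 3 (62.8%). The level difference was 4.92 percentage points with a 95% interval from 0.0451 to 9.80. It was the largest of the member clusters, and 2.95% of all clusters reached this size. That share does not measure rarity, since most clusters lay under 10% or over 90%, where levels can differ little. On the M-value scale 6.27% of all clusters had an unadjusted p at least as small (limma). The pooled SD within the series was 7.29 points. Of the 324 clusters within 5 points of this mean level, 9.26% had an SD at least as large (median 3.98). Leaving out 1 sample gave a level difference of 3.86 to 5.97 points, and its interval was above 0 in 16 of these 36 fits. On the M-value scale it was 0.67 ± 0.22 (SE), with an unadjusted p of 0.00563 and an adjusted p of 0.0898 (limma), so it did not pass.

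The level of the Foxo3 first intron depended on the distance from the start. Position means over all samples ran along the cluster from 67.8% to 91.6%. At the 24 positions from 930 to 991 bp, the means were 74.3% ± 7.15 in Control and 78.3% ± 8.85 in Ikaros (SD, n = 18 each). At the 9 positions from 1002 to 1066 bp, they were 85.0% ± 7.80 and 92.4% ± 5.87. The difference was thus 4.01 percentage points on the near side and 7.36 on the far side, a split chosen after the profile was seen and not tested. When single positions were tested in place of clusters, 7 of the 33 positions passed (smallest adjusted p = 0.0112, limma), against 2.47% of 895908 positions, but neighbouring smoothed positions are not independent. When only the first cytosine of each CpG was used, the cluster passed as well (M-value difference 0.82, adjusted p = 0.0382), where 4.83% of all clusters did.

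**Figure D3:**
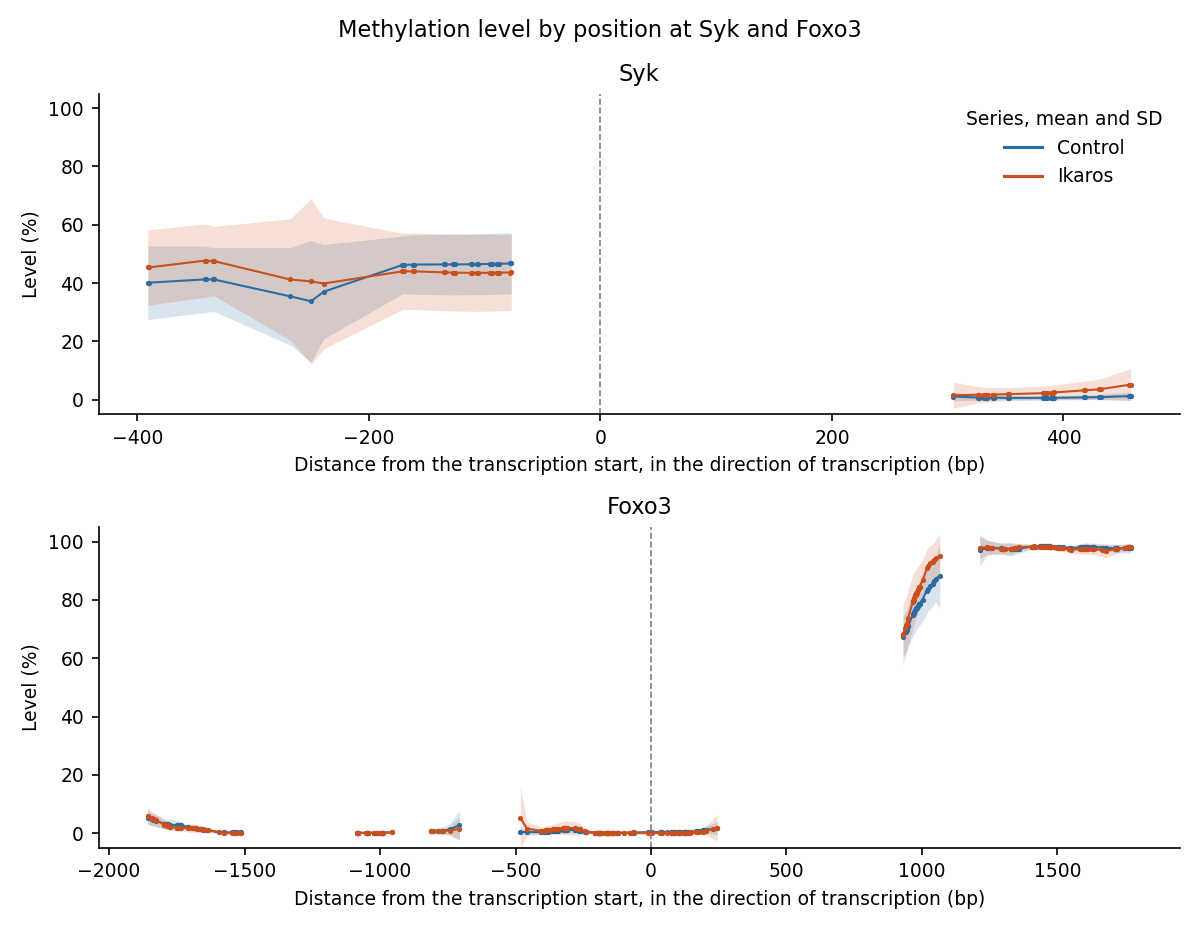
Mean level (y axis, percent) with SD bands over 18 samples per series at each complete position of Syk and Foxo3, against the distance from the start in bp. Syk steps from about 44.0% upstream to a few percent downstream, and Foxo3 from near 0 at the start through the rising first intron to the highly methylated coding exon.

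The Foxo3 intron result stood close to the threshold and moved across it with single samples. Without Ikaros 12 h replicate 3 the adjusted p was 0.0331, without Ikaros 0 h replicate 1 it was 0.0345, and in the other fits leaving out 1 sample it reached at most 0.146. Within batches as the labels give them, the level difference was 0.800 percentage points in batch 1 (n = 6 per series), 9.08 in batch 3 (n = 5) and 5.59 in batch 4 (n = 6), and batch 2 held 1 sample per series (4.87). The direction was the same in each batch, and no within-batch adjusted p passed (0.788, 0.723 and 0.0804 for batches 1, 3 and 4, limma). With the shares of empty and of extreme levels as covariates the M-value difference was 0.62 with an adjusted p of 0.486. The share of extreme levels differs between the series, as given above, whereas the medians of the empty share were 0.323% in Control and 0.342% in Ikaros.

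The Foxo3 distal coding exon had the other interval above 0. Its level ran from 92.0% over a median of 97.8% to 98.7% in Control and from 96.3% over 97.9% to 100% in Ikaros. The difference was 1.08 percentage points (95% interval 0.122 to 2.05, and 0.753 to 1.21 points on leaving out 1 sample), with an M-value difference of 0.47 ± 0.21 (SE) and an adjusted p of 0.267 (limma). The means were higher in Ikaros at 6 of 6 time points, by 0.412 to 2.35 percentage points. With the shares of empty and of extreme levels as covariates, the M-value difference fell to 0.13 with an adjusted p of 0.922 (limma). The value of 100% was in Ikaros 24 h replicate 2, the library with the largest share of levels at exactly 0 or 1 (59.1%).

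No member cluster passed the test for change over time within a series or for a different course between the series (limma moderated F tests). Over all clusters, 0.0% (0) passed in the Ikaros series, 0.012% (2) in the Control series and 0.0% (0) for a different course. At an unadjusted p under 0.05, 0 of 14 members were found in the Ikaros series, beside 5.22% of all clusters (873). In the Control series 0 were found (beside 4.83%, 808 of all) and for a different course 1 (beside 5.12%, 857 of all). With 14 members, such counts are near the shares of all clusters. The cluster found for a different course was that of the Pik3cd downstream exons, with an adjusted p of 0.871 (limma). Its lowest group was Ikaros 0 h, with 93.4%, 94.4% and 95.4%, below the 3 Control 0 h samples at 96.5%, 99.03% and 99.1%, and from 2 h on the samples of the series overlapped. The smallest adjusted p over the members was 0.969 in the Ikaros series, 0.991 in the Control series and 0.871 for a different course.

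Group means of the intermediate clusters moved without a common direction over time. The Syk promoter means lay between 20.6% (6 h) and 26.8% (2 h) in Control and between 21.8% (12 h) and 27.5% (24 h) in Ikaros. The Foxo3 first intron means lay between 68.2% (12 h) and 80.03% (24 h) in Control and between 78.8% (0 h) and 87.2% (2 h) in Ikaros. The low Control mean at 12 h came from values of 82.1%, 66.1% and 56.3%, a spread wider than any difference between time points. The Foxo3 intron mean was higher in Ikaros at 5 of 6 time points, by up to 11.9 percentage points at 12 h, and 0.689 points lower at 0 h. The samples of the series overlapped at every time point in both clusters. Over all 14 clusters and 6 time points, the 3 Ikaros and 3 Control levels did not overlap in 9 of 84 comparisons, 2 with Ikaros higher and 7 with Ikaros lower, a share of 10.7% against 13.4% over all clusters.

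**Figure D4:**
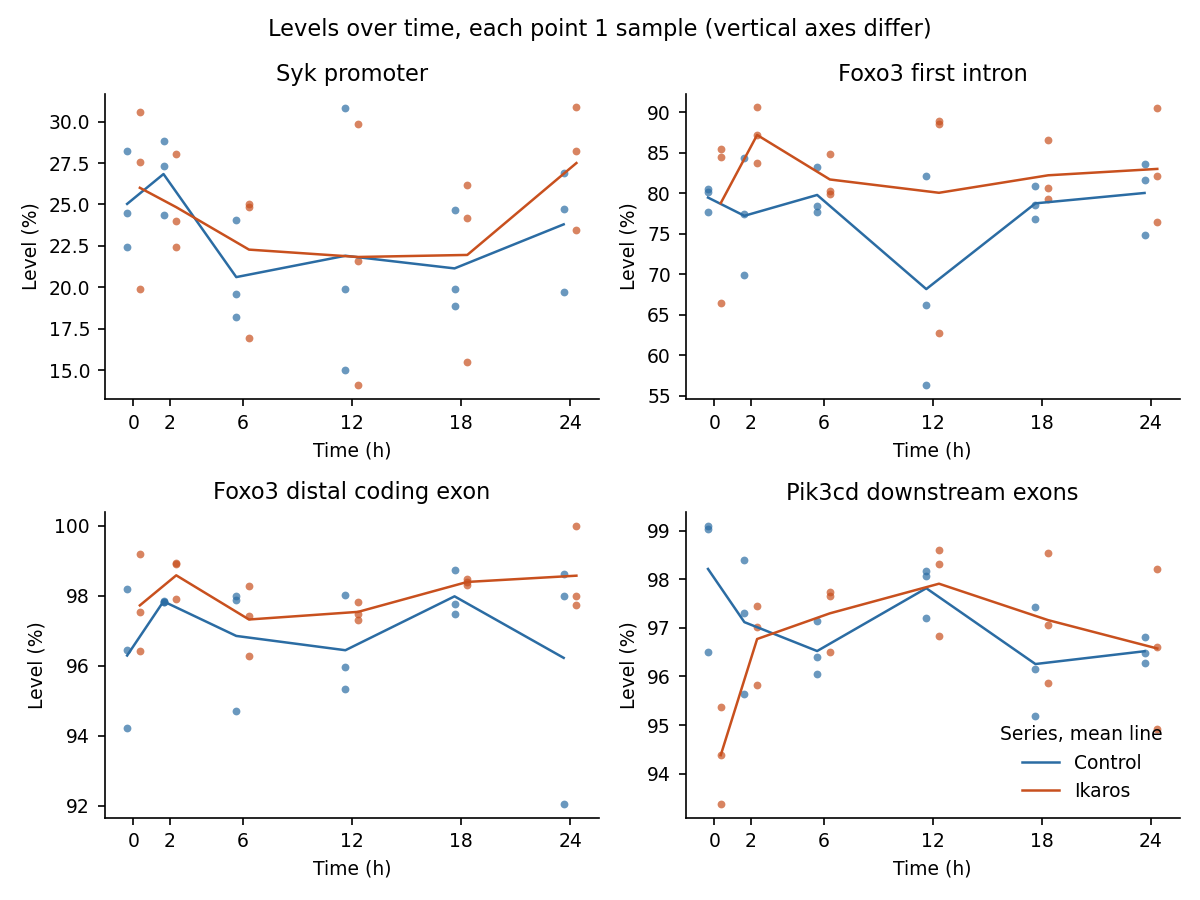
Level (y axis, percent, scaled per panel) against time in h for 4 member clusters, each point 1 sample and each line the mean of 3 replicates. The samples of the series overlap at most time points, and they separate at 0 h in the Pik3cd downstream exons and at 2 h in the Foxo3 distal coding exon.

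The pathway was also followed beyond these genes. A list of 71 further genes, from receptor chains to Foxo targets, had 86 clusters at 49 genes, of which 64 were under 10% and 14 over 90%. Among the 71 promoter clusters, 56 were under 10%. Between the series 4 of the 86 (4.65%) were higher in Ikaros and 0 lower, beside 4.84% of all clusters called in either direction. These 4 were promoter clusters, each methylated in both series, and 2 of them (Klf2 and Foxo6) had a further promoter cluster over the start that was not called. Inpp4b, a lipid phosphatase of the PI3K pathway, was at 83.6% ± 3.51 in Control and 90.4% ± 3.76 in Ikaros (SD, n = 18 each; adjusted p = 0.000399, limma). Prkcb, the kinase that links the receptor to NF-kB, was at 84.7% ± 5.23 and 92.7% ± 3.96 (adjusted p = 0.000662, limma). Klf2, a transcription factor and Foxo target, was at 83.2% ± 2.94 and 91.2% ± 4.14 (adjusted p = 0.00304, limma) in a cluster that came no nearer than 559 bp to the start. The Klf2 cluster that covers the start was unmethylated, at 1.30% ± 0.880 in Control and 0.881% ± 1.09 in Ikaros, with an adjusted p of 0.314 (limma). Foxo6, a Foxo paralogue, was at 81.6% ± 4.75 and 88.5% ± 1.99 (adjusted p = 0.00908, limma) in a cluster 442 bp from the start, while its cluster over the start was at 97.8% and 97.9% (adjusted p = 0.974, limma). Over time, 0 of the 86 passed in each of the 3 limma tests. At an unadjusted p under 0.05 there were 15 for the series difference, 17.4% of the 86 beside 14.8% of all clusters. For time in the Ikaros series there were 2 (2.33%, beside 5.22% of all clusters), for time in the Control series 4 (4.65%, beside 4.83%) and for a different course 4 (4.65%, beside 5.12%). These counts are small, and a difference from the share of all clusters was not tested.

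Among the kinase and adaptor genes next to the receptor, low levels prevailed. Of their 15 clusters, 13 were under 10%, among them the promoters of Lyn, Fyn, Tec, Cbl, Cblb, Grb2, Sos1 and Vav2, and both clusters over 90% were promoter clusters of Vav3. The genes of PI3K itself had 24 clusters, with 17 under 10% and 5 over 90%, those of Akt and mTOR 22, with 18 and 2, and those of calcium and NF-kB signalling 9, with 7 and 1. The single receptor cluster, of Vpreb1, was under 10%. The Foxo paralogues and targets had 15 clusters, with 8 under 10%, 3 intermediate and 4 over 90%. Over all 13134 protein-coding promoter clusters, 58.4% were under 10%, 9.17% intermediate and 32.4% over 90%. No difference between these groups was tested. Of the 15 clusters of the kinases and adaptors, 0 lay between 10% and 90%, the range in which the Syk promoter lay. With 9.17% of promoter clusters in that range, 0 of 15 is near the background. The PI3K genes had 2 clusters in it, the Akt and mTOR genes 2 and the calcium and NF-kB genes 1.

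The clusters whose M-values followed the Foxo3 first intron most closely over the 36 samples, among 13713 comparisons of clusters with protein-coding genes on other chromosomes, were the promoter clusters of Dock9 (Pearson r = 0.616), Nat8l (r = 0.610) and Plek (r = 0.598). Their mean levels were 83.3%, 59.6% and 89.6%. Within the Ikaros series the correlations were 0.584, 0.488 and 0.450, and within the Control series 0.150, 0.410 and 0.491. The samples share libraries, so these values describe likeness only.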

How the data were processed

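Groups, replicates and batches of the 36 RRBS samples of the B3 line follow the labels. The authors' processing notes name CASAVA, FastQC, Bismark 0.10.1, HTSeq and methylKit on mm10. The authors smoothed levels within CpG clusters with BiSeq (bandwidth 80 bp) and deposited them as fractions from 0 to 1. A second deposited table holds M-values, log2 of the level over its complement with levels limited to 0.01 to 0.99. The deposited levels come without coverage, so the depth at a position is unknown and only the spread between samples describes the precision. All sample columns were used.

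Positions with a value in every sample were averaged per cluster with Python 3.11.15, numpy 2.4.6 and pandas 2.3.3, and levels are printed in percent. The mean M-value of each cluster was fitted by limma 3.58.1 (lmFit, eBayes; R 4.3.3) with Benjamini-Hochberg adjustment over 16734 clusters, at an adjusted p under 0.05. The series were compared with time as a factor, time within a series by moderated F tests, and the course by 5 interaction terms. Intervals come from the same fit on levels. The steps were tested on simulated data.

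Named were the 9 genes and every cluster within 2 kb, further pathway genes only where a cluster passed or to describe a group's levels, and the 3 clusters most correlated with the member of largest difference. The genes and lists were chosen with earlier results of these data known. Examples of levels in the pathway description and the stretches within Syk and Foxo3 were chosen after their values were seen. Replicates 1 and 3 are batches 1 and 4 in the labels, and replicate 2 is batch 2 at 0 h and batch 3 later, so samples with the same number and time point share a batch, but number 2 does not mark 1 batch over time. Deviations of same-numbered samples from their group means had a mean correlation of -0.000326 over 198 pairs, and -0.00665 over 18 pairs at the same time point. Alternatives covered the scale, the summary, the positions, replicate and batch blocks, covariates, variance settings, autosomes, subsets of time points and batches, and each replicate number and sample left out, the last also on levels, which was chosen after the data were seen.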

Additional observations from a re-analysis of the deposited data

How the results depend on the processing

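No member cluster was called in any of the 4 tests under the replicate block (over all clusters 820, 0, 2 and 0 calls for the series difference, Ikaros time, Control time and different course), and pairing by replicate number changed no call on a member. The count of member clusters differing between the series became 1 when only the first cytosine of each CpG was used, and ranged from 0 to 1 over the fits leaving out 1 sample or replicate number. It stayed at 0 under the other settings, and for the other 3 tests the members' count ranged from 0 to 0 over those fits. Over all clusters, the series difference had 335 calls with the shares of empty and extreme levels as covariates, 1 in the 0 h samples, 43 in batch 1, 1 in batch 3, 71 in batch 4 and 22156 with single positions. Leaving out 1 sample or replicate number gave 368 to 863, with 399 without replicate 1 and 368 without replicate 3. Change over time in the Ikaros series had 3 calls with medians, 165 with single positions and 0 to 5 on leaving samples out. Change in the Control series had 0 with levels, with the first cytosine or with the covariates, 1 with medians or all positions, 6 with a batch block, 161 with single positions and 0 to 12 on leaving samples out. A different course had 1 with medians or with trend and robust variances, 175 with single positions and 0 to 14 on leaving samples out. The causes were not tested. Between 6 (batch 4) and 12 of the 14 members were higher in Ikaros, and 42 of 756 refitted differences changed sign, in 11 clusters whose M-value difference was at most 0.19. In the limma fits the Syk promoter and the Foxo3 first intron and distal coding exon kept their direction in all 54 alternatives each. These are the 3 members with an unadjusted p under 0.05 in the same data. Some settings also cannot change the estimate, so the kept direction is no support. The M-value difference fell from 0.38 to 0.04 in batch 3 for Syk. It fell from 0.67 to 0.14 in the 0 h samples for the intron, and from 0.47 to 0.13 with the covariates for the exon. Plain differences of mean levels changed sign for Syk, at -2.89 points in batch 3 and -8.34 in batch 2, -2.002 at 2 h and -0.0734 at 12 h. They also did for the Foxo3 first intron, at -0.689 at 0 h. Those of the distal coding exon were above 0 in each batch and at each time point. No mean level of a member over a whole series moved by 1 SD when all positions were used. Leaving out a replicate number cannot move a series mean by 1 SD of the same samples, so no conclusion is drawn from that setting. Level differences with 1 sample left out were added after the data were seen, and changed sign for at least 1 sample in the Cd79a flank, the Pik3cd internal promoter, the Foxo1 first exon and first intron and the Foxo3 start (-0.0233 points without Ikaros 24 h replicate 1). With the cluster centre within 2 kb of a start, 10 members counted as promoter clusters. Unknown depth limits all values.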
